A study of Mus musculus with 8 samples.

Results

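The 10 genes described here are grouped under targets of the liver X receptors (LXR) and cholesterol efflux in macrophages. They are Nr1h3, Abca1, Abcg1, Apoe, Apoc1, Apoc2, Pltp, Lpl, Mylip and Ch25h. Not every one of them acts in efflux: Nr1h3 encodes a receptor, Ch25h makes an oxysterol and Lpl encodes a lipase. They were chosen by name, as the array probes whose gene name is one of the 10, with the brightest probe of a gene as its main value. All 10 were measured and passed the filter on dim probes, out of 18004 genes tested. Every probe of the 10 genes was well above background on 8 of 8 arrays in both channels.

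The study asked what the loss of THOC5, a subunit of the TREX complex that takes part in mRNA export, does to macrophage differentiation under the growth factor CSF-1. Cytoplasmic RNA of mouse bone marrow derived macrophages was hybridised to 8 dual-colour Agilent arrays, each with RNA from day 3 under CSF-1 against RNA from day 0. Control mice carried the tamoxifen-inducible recombinase ERT2 Cre alone, and flox mice carried ERT2 Cre with 2 floxed copies of Thoc5, both on a C57BL/6 x B6:129 Ola background. Cells of each genotype were kept untreated or given tamoxifen, which makes 4 groups of 2 arrays, 1 from each of 2 biological experiments. All groups thus carry the recombinase, and the day 0 cells had no tamoxifen. The promoter that drives ERT2 Cre, the age of the mice and the number of mice per culture are not given in the sources used here. In experiment 2 the dyes were inverted, so experiment, slide and dye direction cannot be told apart. Within an experiment both arrays of a genotype carried the same day 0 RNA, so its 2 groups share their reference.

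LXR are nuclear receptors that bind oxidised forms of cholesterol and act on DNA as a pair with a retinoid X receptor. In macrophages they switch on transporters that move cholesterol out of the cell, apolipoproteins and transfer proteins that carry it away, and a ubiquitin ligase that lowers its uptake. Sterol synthesis is run by another factor, SREBP2, which is held back when sterols are plentiful, so that the 2 systems usually move in opposite directions when the sterol load of a cell changes.

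The LXR pair binds repeats of a short motif spaced by 4 bases (DR4). Promoter windows of 300 bases, from 250 before to 50 after an annotated start, were on hand from RefSeq (GRCm38.p6) for 7 of the 10 genes, namely Abca1, Apoe, Apoc2, Nr1h3, Mylip, Pltp and Ch25h. The loose DR4-like pattern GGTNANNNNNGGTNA, searched on both strands, lay in 236 of 32851 windows of all genes, which is 0.718%, and among the 7 genes it lay only in that of Abca1. The cyclic AMP response element TGACGTCA lay in 588 windows (1.79%), and among the 7 genes only in that of Ch25h. The E-box CACGTG lay in 2349 windows (7.15%), of the 7 genes in that of Abca1, and the interferon-type pattern GAAANNGAAA in 1131 (3.44%), in 0 of the 7. Both stretches of 30 bases are shown because Abca1 differed between the genotypes and Ch25h fell most with tamoxifen in flox cells; they read 5′ to 3′ on the strand of the gene, with the matched letters in capitals.
Abca1, chr4:53159940-53159969, minus strand: cagcgttTGACCGGTAGTAACCccggcgct
Ch25h, chr19:34475191-34475220, minus strand: agacggaagggTGACGTCActggggggagt
The match in Abca1 spans positions -67 to -53 from the start and reads on the opposite strand of the gene. The match in Ch25h spans -61 to -54, and its letters read the same on both strands. A match of letters describes the window and does not show binding, and windows without a match say nothing of LXR.

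Each channel had 52.0% to 58.6% of its probes above background and 0 saturated spots, and the 2 arrays of a group correlated at r = 0.785 (control cells without tamoxifen) to 0.928 (flox cells without tamoxifen) across genes. Thoc5, the targeted gene, had log2 ratios of day 3 over day 0 of -3.04 and -3.02 in flox cells with tamoxifen (experiments 1 and 2), against -0.74 and -0.77 in flox cells without it and -0.40 to -0.15 in the 4 control arrays. With tamoxifen Thoc5 fell by 2.27 ± 0.10 in flox cells (log2, SE, adjusted p = 0.000714, limma), and the labels do not say whether its probe lies in the floxed part. All 10 macrophage markers were well above background on every array, Adgre1, Cd68, Itgam and Fcgr1 among them. From day 0 to day 3, 6 of these 10 rose and 1 fell in control cells without tamoxifen, and 6 rose and 0 fell with it. In flox cells 5 rose and 2 fell without tamoxifen, and 6 rose and 4 fell with it. Over all genes 57.2% to 58.9% were called in these 4 groups, with more lower than higher in each. The 9 neutrophil markers measured were also above background, and 8 or 9 of them fell from day 0 to day 3 in each group, with medians of -3.47 to -3.75. In bulk RNA of this kind, fewer cells of a type and less RNA per cell cannot be told apart.

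From day 0 to day 3, Abca1, Abcg1, Apoe, Mylip and Pltp rose in all 4 groups, with Apoe at 5.10-fold to 8.81-fold. Control cells without tamoxifen had 8 of 10 genes higher and 0 lower, with a median log2 ratio of 1.83 against -0.0577 over all genes. Of all 18002 genes, 57.3% were called in this comparison, 4201 higher and 6120 lower. Control cells with tamoxifen had 9 higher (median 1.21, 57.6% of all genes called), flox cells without tamoxifen 9 higher (median 0.857, 57.2% called) and flox cells with tamoxifen 7 higher (median 1.08, 58.9% called). In the same order, 4299, 4307 and 4586 of all genes were higher and 6068, 5997 and 6011 lower. None of the 10 fell in any group. The part of the falling neutrophil markers in these rises was not tested.

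**Figure D1:**
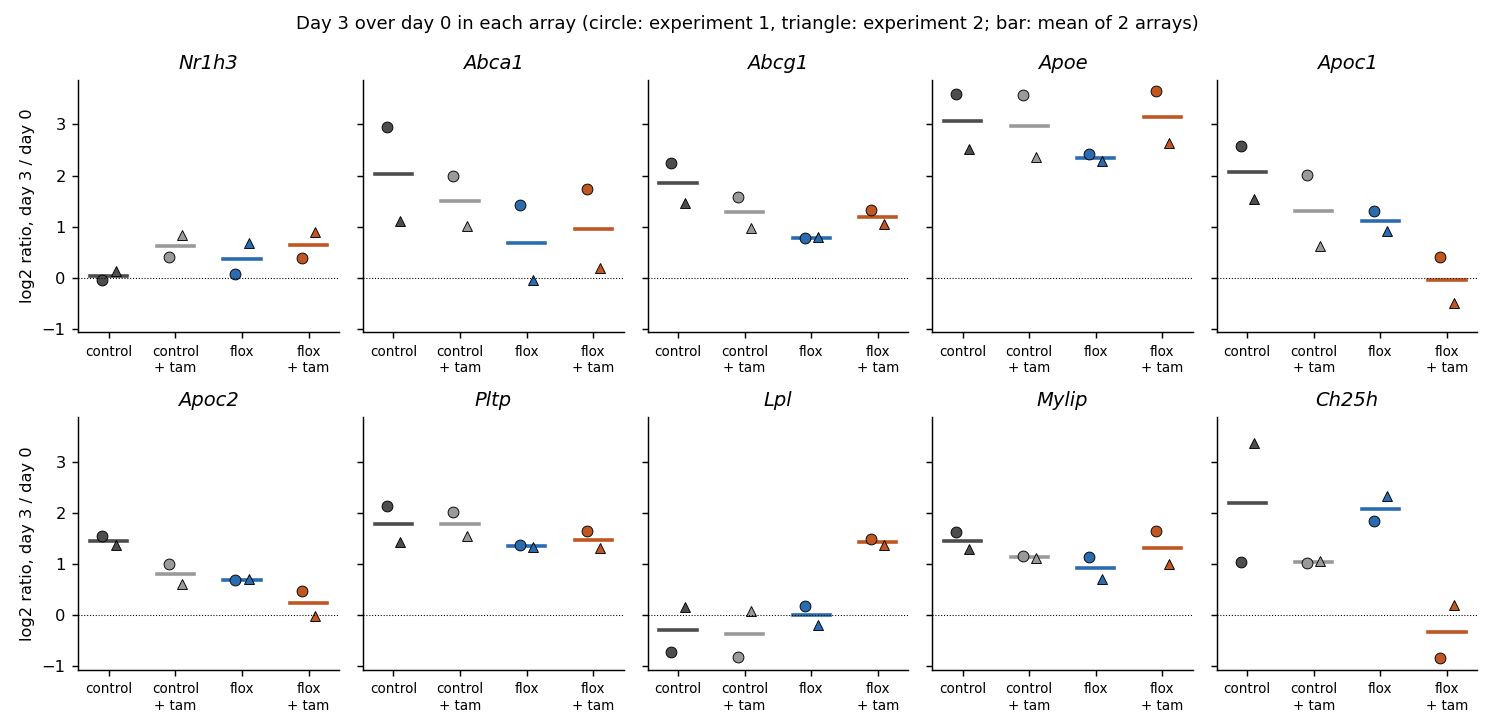
Each panel plots the log2 ratio of day 3 over day 0 of 1 gene on the 8 arrays, by group, with circles for experiment 1, triangles for experiment 2 and a bar for the mean of the 2 arrays. Apoc1, Apoc2 and Ch25h are lowest in flox cells with tamoxifen, where Lpl is highest at 1.49 and 1.37, and Abca1 is lower on every array of experiment 2 than on that of its group in experiment 1.

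Nr1h3 encodes LXR alpha, the receptor itself. In control cells its log2 ratio was -0.041 and 0.14 without tamoxifen (experiments 1 and 2) and 0.40 and 0.84 with it. In flox cells it was 0.072 and 0.68 without tamoxifen and 0.39 and 0.91 with it. Control cells without tamoxifen were the lowest group in experiment 1 and in experiment 2, and the groups of flox cells overlapped. Day 3 against day 0 gave 0.05 ± 0.09 (log2, SE, n = 2) in control cells without tamoxifen, which did not pass, and rises of 0.62, 0.38 and 0.65 in the other groups (adjusted p = 0.00166, 0.0125 and 0.00124). The rise in flox cells without tamoxifen was 0.26 (adjusted p = 0.208) without the array of experiment 2 and lost its call with no replicate block (adjusted p = 0.146). A second Nr1h3 probe, at chr2:91024345-91024404 (mm9), beside the main one at chr2:91024250-91024309, gave 0.12, 0.63, 0.27 and 0.50 in the same order, of which both groups without tamoxifen did not pass (adjusted p = 0.379 and 0.067).

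Abca1 encodes the transporter that loads cholesterol and phospholipid onto lipid-poor apolipoprotein A-I. Its probe at chr4:53043944-53044003 (mm9) gave log2 ratios of 2.95 and 1.11 in untreated control cells and 1.99 and 1.02 with tamoxifen. Flox cells gave 1.42 and -0.046 without tamoxifen and 1.73 and 0.20 with it. Within each experiment control cells without tamoxifen were highest and flox cells without tamoxifen lowest, while the values of the 2 experiments overlapped between the groups. The rises were 4.09-fold and 2.84-fold in control cells and 1.61-fold and 1.95-fold in flox cells, all called (adjusted p = 0.000104, 0.000286, 0.00623 and 0.00141). With no replicate block the last 3 lost their call (adjusted p = 0.0627, 0.352 and 0.197). The rise in flox cells without tamoxifen was also lost without its array of experiment 1 (0.68, adjusted p = 0.0719) or of experiment 2 (0.70, adjusted p = 0.0641).

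Abcg1, a transporter that passes cholesterol to high-density lipoprotein, had the same order of group means as Abca1. In control cells its log2 ratio was 2.25 and 1.47 without tamoxifen and 1.58 and 0.98 with it. Flox cells had 0.77 and 0.81 without tamoxifen and 1.34 and 1.05 with it. Both arrays of flox cells without tamoxifen lay under all 6 others, and the other groups overlapped with their neighbours in this order. The group rises were 3.63-fold, 2.43-fold, 1.73-fold and 2.29-fold, the last in flox cells with tamoxifen, with adjusted p from 0.000137 to 0.00346. Without the flox array of experiment 2 without tamoxifen, that group's log2 rise was 0.49 (adjusted p = 0.0641).

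Apoe, Apoc1 and Apoc2 encode secreted apolipoproteins and sit in 1 gene cluster: their probes lie within 24.7 kb on chromosome 7 (mm9), 6.9 kb from Apoe to Apoc1 and 17.8 kb from Apoc1 to Apoc2. Apoe, the ligand by which macrophage lipoproteins reach receptors of the LDL family, was measured by 10 spots of 1 probe. Control cells had log2 ratios of Apoe of 3.60 and 2.53 without tamoxifen and 3.58 and 2.36 with it, and flox cells had 2.41 and 2.29 without and 3.65 and 2.63 with it. All 8 arrays were above 2. Both flox arrays without tamoxifen lay below those of untreated control cells and of flox cells with tamoxifen, and the other pairs of groups overlapped. The rises were 3.06, 2.97, 2.35 and 3.14 ± 0.18 (log2, SE) in the order above, and each stayed called under every alternative tried, each array left out in turn included.

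Apoc1, an inhibitor of lipoprotein lipase and of receptor uptake of lipoproteins, had log2 ratios of 2.58 and 1.55 in untreated control cells and 2.01 and 0.62 with tamoxifen. In flox cells they were 1.31 and 0.92 without tamoxifen and 0.40 and -0.50 with it. The arrays of flox cells with tamoxifen were the lowest of all 8, and they did not overlap with any other group. Apoc1 rose 4.19-fold, 2.49-fold and 2.17-fold in the first 3 groups and was at -0.05 ± 0.16 in flox cells with tamoxifen (log2, SE, adjusted p = 0.816).

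Apoc2, the cofactor that lipoprotein lipase needs, followed the same order of groups. It had log2 ratios of 1.56 and 1.37 in untreated control cells and 1.00 and 0.62 with tamoxifen. Flox cells had 0.68 and 0.71 without tamoxifen and 0.48 and -0.015 with it. Control cells without tamoxifen were above every other array, and flox cells with tamoxifen below every other. The rises were 2.75-fold, 1.75-fold and 1.62-fold, and flox cells with tamoxifen gave 0.23 ± 0.10 (log2, SE, adjusted p = 0.0897).

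Pltp encodes phospholipid transfer protein, which moves phospholipid onto high-density lipoprotein. Its log2 ratio was 2.15 and 1.44 in control cells without tamoxifen, 2.03 and 1.55 with it, 1.37 and 1.33 in flox cells without tamoxifen and 1.64 and 1.31 with it. The flox arrays without tamoxifen lay under all 4 control arrays, and both flox groups overlapped. Pltp rose 3.46-fold in both control groups, 2.55-fold in flox cells without tamoxifen and 2.78-fold with it.

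Lpl encodes lipoprotein lipase, which releases fatty acids from triglyceride-rich lipoproteins. Its log2 ratio was -0.72 and 0.16 in untreated control cells and -0.82 and 0.09 with tamoxifen. In flox cells it was 0.19 and -0.18 without tamoxifen and 1.49 and 1.37 with it. Both arrays of flox cells with tamoxifen lay above all 6 others, and both control arrays of experiment 1 lay below the rest. Lpl rose 2.70-fold in flox cells with tamoxifen (adjusted p = 0.00239, and 0.0514 without its array of experiment 1, at 1.14), and the other 3 groups did not pass (adjusted p = 0.224 to 0.991). A second Lpl probe at chr8:71425050-71425109 (mm9) gave 1.26 in flox cells with tamoxifen and -0.014 to 0.14 in the other groups.

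Mylip encodes IDOL, the ubiquitin ligase that marks the LDL receptor for degradation. Its log2 ratio was 1.63 and 1.30 in control cells without tamoxifen, 1.17 and 1.12 with it, 1.15 and 0.70 in flox cells without tamoxifen and 1.64 and 1.01 with it. Untreated control cells lay above control cells with tamoxifen and above flox cells without it, and the lowest array was one of the latter. Mylip rose 2.75-fold, 2.21-fold, 1.90-fold and 2.50-fold in that order of groups. A second Mylip probe at chr13:45503808-45503867 (mm9) gave larger log2 rises of 2.48, 2.24, 1.99 and 2.37, in the same order of groups as the main probe at chr13:45506979-45507038.

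Ch25h makes 25-hydroxycholesterol, an oxysterol that activates LXR and holds back SREBP2. Its log2 ratio was 1.04 and 3.37 in untreated control cells and 1.02 and 1.07 with tamoxifen. Flox cells had 1.84 and 2.33 without tamoxifen and -0.84 and 0.20 with it. The 2 control arrays without tamoxifen lay farther apart than those of any other gene of the 10, while both flox arrays with tamoxifen were below all 6 others. Ch25h rose 4.61-fold, 2.06-fold and 4.23-fold in the first 3 groups, and flox cells with tamoxifen gave -0.32 ± 0.34 (log2, SE, adjusted p = 0.454). The rise in control cells was 1.30 without the untreated array of experiment 2 and 3.1 without that of experiment 1. The rise with tamoxifen in control cells (adjusted p = 0.0378) was 0.42 without its array of experiment 1 (adjusted p = 0.511), lost its call without either flox array with tamoxifen (adjusted p = 0.0507), and lost it with no replicate block (adjusted p = 0.122) and with a random block for each day 0 RNA (adjusted p = 0.0589).

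**Figure D2:**
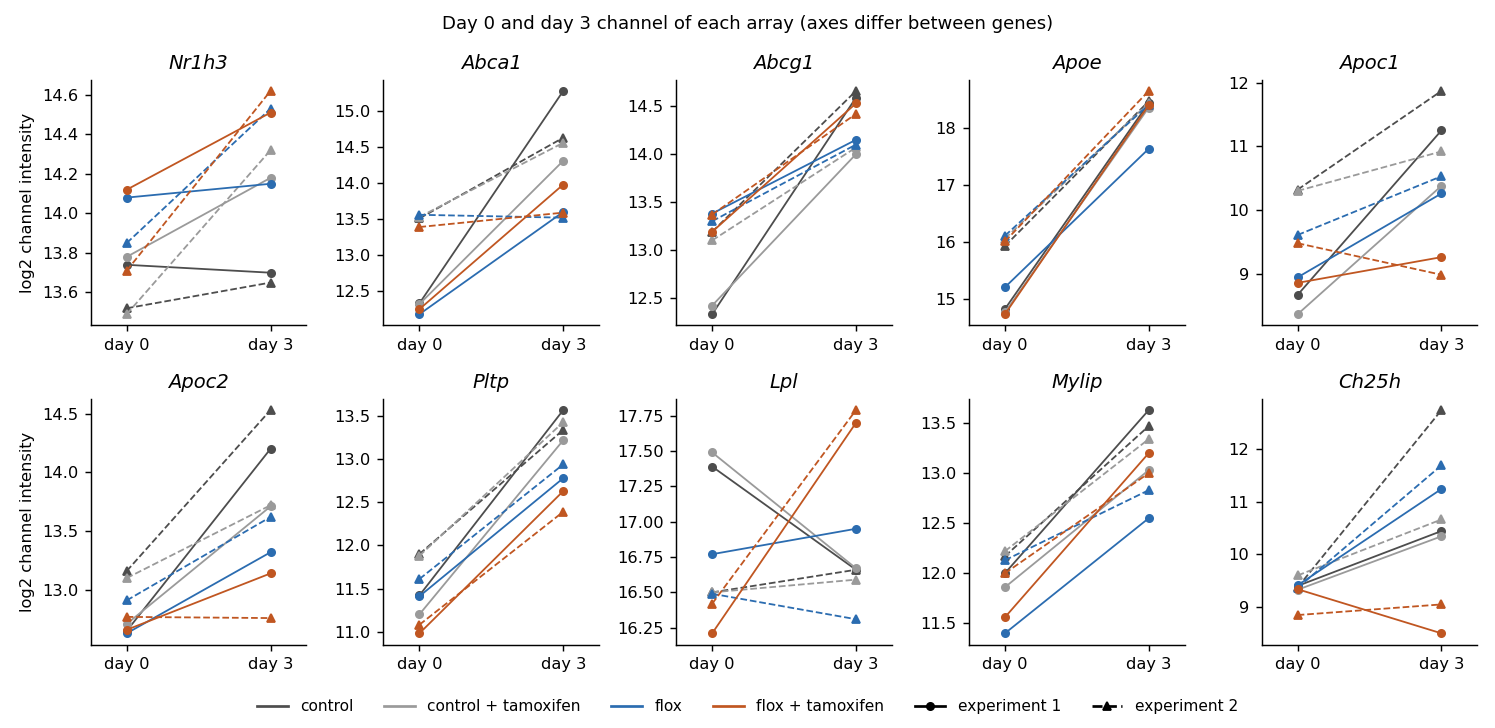
Each panel plots the log2 intensity of 1 gene in the day 0 and the day 3 channel of each array, joined by a line, with solid lines for experiment 1, dashed lines for experiment 2 and colours for the groups; axes differ between genes. In the panel of Abca1 the day 0 values of experiment 2 lie above those of experiment 1, and in that of Lpl the day 3 values of flox cells with tamoxifen, 17.70 and 17.79, lie above all others.

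The intensities of the separate channels show where these ratios came from. For Abca1, the day 0 level was higher in experiment 2 than in experiment 1 by 1.2 in control cells and 1.26 in flox cells (log2), and for Apoe by 1.2 and 1.08. For Lpl it was lower by -0.94 in control cells, with 17.44 in experiment 1 and 16.50 in experiment 2, and by -0.035 in flox cells. The Lpl ratios of control cells in experiment 1 were thus low beside a high day 0 level. At day 3, Lpl was at 16.66 and 16.66 in control cells without tamoxifen, 16.67 and 16.59 with it, 16.95 and 16.31 in flox cells without tamoxifen, and 17.70 and 17.79 with it. Both arrays of the last group were higher than the rest in this channel too. Ch25h at day 3 was at 10.44 and 12.74 in untreated control cells and 10.34 and 10.66 with tamoxifen, and at 11.24 and 11.69 in flox cells without tamoxifen and 8.49 and 9.04 with it. The wide pair is the control group without tamoxifen, and its day 0 levels of 9.40 and 9.37 were close. Arrays that shared a day 0 RNA differed in that channel by a median of 0.091 and by up to 0.551 over the 10 genes, the largest for Lpl in flox cells of experiment 1.

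At day 0, before CSF-1 and tamoxifen, 0 of the 10 genes differed between flox and control cells at an adjusted p under 0.05 (limma). Of all genes, 1.16% were called. The unadjusted p was under 0.05 for 2 of the 10, beside 1482 of 18002 genes. These 2 were Abcg1, at 0.55 ± 0.16 (log2, flox minus control, SE, adjusted p = 0.273), and Nr1h3, at 0.31 ± 0.12 (adjusted p = 0.496). The intervals of the others reached from -1.18 to 0.81 for Ch25h, the widest, and from -0.57 to 0.25 for Apoc2. At the same time point 5 of 9 neutrophil markers were higher in flox cells, with Mpo at 1.93, Ctsg at 1.64, Camp at 1.40, Ltf at 1.24 and Ngp at 1.08 (log2). Their part in the ratios of flox cells, whose reference is this RNA, was not tested.

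The tamoxifen effect in control cells tests what tamoxifen and an active recombinase do where no floxed gene is present. Here 0 of 10 genes passed and 0% of all genes were called (limma, adjusted p under 0.05). At an unadjusted p under 0.05 there were 997 of 18000 genes, and 5 of the 10. These were Abca1 at -0.53, Abcg1 at -0.58, Apoc1 at -0.75, Apoc2 at -0.65 and Nr1h3 at 0.57 (log2, adjusted p = 0.857, 0.80, 0.723, 0.478 and 0.505). Of the 10 genes 9 had a negative value, with a median of -0.424 against 0.0118 over all genes, and 9 had the same sign in both experiments. With median centring in place of loess 1 of the 10 passed, Ch25h at -1.03 (limma, adjusted p = 0.0192), beside 27 of 18000 genes. In the main setting Ch25h was at -1.16 with a 95% interval of -2.33 to 0.0046, from -0.021 in experiment 1 and -2.30 in experiment 2.

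**Figure D3:**
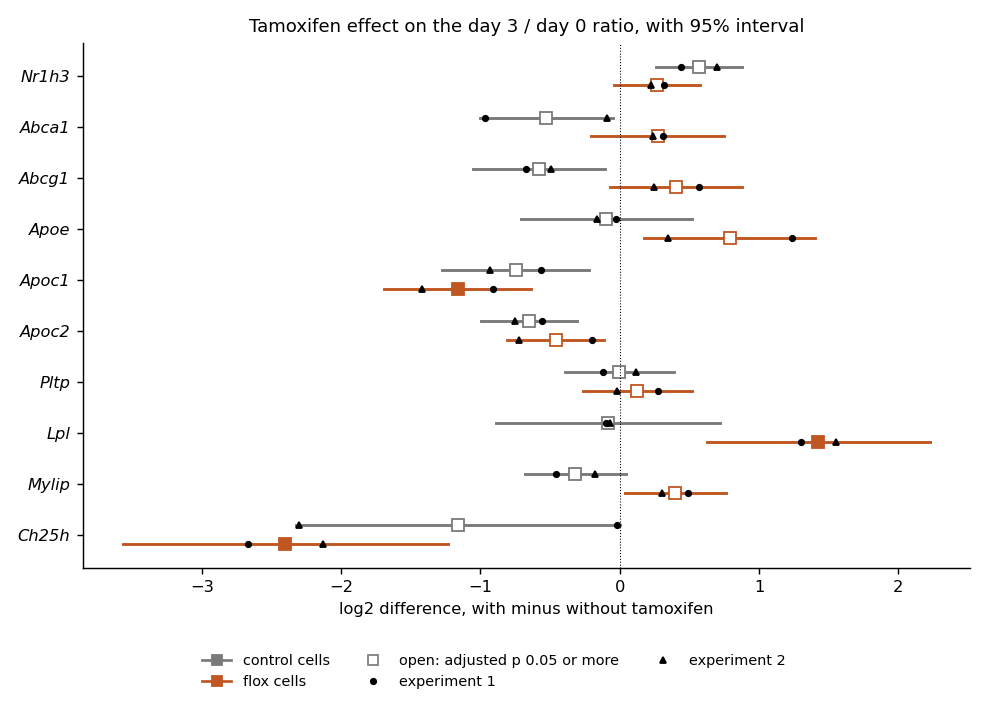
The plot shows, per gene, the log2 difference with minus without tamoxifen of the day 3 over day 0 ratio, as a square with its 95% interval, for control cells (grey) and flox cells (orange); filled squares passed at an adjusted p under 0.05, and small circles and triangles are experiments 1 and 2. Ch25h at -2.40, Apoc1 at -1.16 and Lpl at 1.43 in flox cells are the 3 filled squares.

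In flox cells, where Thoc5 fell with tamoxifen, 3 of the 10 genes changed, while 9.02% of all genes were called. Lpl rose 2.69-fold with tamoxifen, Apoc1 fell 2.24-fold and Ch25h fell 5.28-fold. The other 7 genes, with both transporters, Apoe, Mylip, Pltp, Apoc2 and Nr1h3, did not pass, with values from -0.46 for Apoc2 to 0.79 for Apoe (adjusted p = 0.104 and 0.114). The median of the 10 was 0.272 against -0.00737 over all genes.

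Ch25h gave -2.40 ± 0.48 (log2, SE, adjusted p = 0.0332), with -2.67 in experiment 1 and -2.13 in experiment 2. Apoc1 gave -1.16 ± 0.22 (adjusted p = 0.0269), with -0.91 and -1.42. Lpl gave 1.43 ± 0.33 (adjusted p = 0.049), with 1.30 and 1.55. All 3 effects had 1 direction in both experiments, but they were called by a fit to these same arrays, so this is no separate support. All 3 were also called in the day 3 channel alone, where 2418 of 18002 genes were called against 1624 for the ratio. They were at -2.70 for Ch25h, -1.27 for Apoc1 and 1.11 for Lpl in that channel (limma, adjusted p = 0.0144, 0.0143 and 0.0129). The second Lpl probe gave 1.16 (adjusted p = 0.0659), and the main Lpl probe reached 0.0502 where all 22407 probes were tested in place of genes. With no replicate block 0 of the 3 kept its call (adjusted p = 0.134 for Ch25h, 0.349 for Apoc1 and 0.102 for Lpl), and with Agilent's processed log ratio 0 did. Lpl also lost it with no background correction (adjusted p = 0.0528), with scale normalization (0.0508) and with the mean of its probes (0.0517).

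Leaving out 1 array at a time, Ch25h lost its call without any 1 of the 4 flox arrays, with values of -2.72 to -2.08. Apoc1 lost it without either flox array with tamoxifen (-1.15 and -1.18) or without the untreated flox array of experiment 2 (-0.81). Lpl lost it without any 1 of the 4 flox arrays or of the 2 control arrays with tamoxifen, with values of 0.96 to 1.89. None of the 3 changed sign in these fits.

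Markers of other cells moved in the same comparison. Among 7 stromal and fat markers, Dcn, a fibroblast proteoglycan, rose by 1.17 with tamoxifen in flox cells (limma, adjusted p = 0.0419). The other 6 did not pass, and 5 of the 7 had a positive value (median 0.191). On each array 6 or 7 of the 7 were above background. The mean day 3 level of the 7 was 9.62 and 10.77 in flox cells with tamoxifen (log2, experiments 1 and 2). It was 9.84 and 9.51 in flox cells without tamoxifen and 8.97 to 9.37 in control cells. With tamoxifen this level was lower in experiment 1 and higher in experiment 2, and the Lpl values were 1.30 and 1.55. Stromal and fat cells are a known source of Lpl. Of the 10 macrophage markers Cd68 rose by 0.99, Itgam fell by 0.86 and Fcgr1 fell by 0.86 (log2), and the other 7 did not pass. Of the neutrophil markers Mmp8 rose by 0.72, and the other 8 did not pass. Of 6 B lineage markers Cd79b fell by 1.09, and of 6 megakaryocyte markers Gp9 fell by 0.81 and Ppbp fell by 1.08. The part of these markers in the Lpl and Apoc1 values was not tested.

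The difference between the tamoxifen effects, flox minus control, asks whether a change belongs to the loss of Thoc5. None of the 10 genes passed it (0 of 10 at an adjusted p under 0.05, limma), with 1.14% of all genes called. The unadjusted p was under 0.05 for 5 of the 10, beside 2764 of 18000 genes. These 5 were Lpl at 1.51 ± 0.47, Abcg1 at 0.99 ± 0.28, Apoe at 0.88 ± 0.36, Abca1 at 0.80 ± 0.28 and Mylip at 0.72 ± 0.21 (log2, SE, adjusted p = 0.196, 0.165, 0.316, 0.241 and 0.181). All 5 had 1 sign in both experiments, but they were picked by a fit to these same arrays, so this is no separate support. Apoc1 was at -0.42 (95% interval -1.16 to 0.33) and Ch25h at -1.24 (-2.89 to 0.41), with -2.65 in experiment 1 and 0.18 in experiment 2. The effects on Lpl, Apoc1 and Ch25h in flox cells are therefore not shown to differ from those in control cells. In the day 3 channel alone Abcg1 passed, at 0.94 (limma, adjusted p = 0.0294), beside 616 of 18000 genes. With median centring in place of loess Lpl and Ch25h passed, at 1.35 and -1.27 (limma, adjusted p = 0.00597 and 0.013), beside 379 of 18000 genes.

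Without tamoxifen, flox cells had lower day 3 over day 0 ratios than control cells for Abca1, Abcg1 and Apoc2, 3 of the 10 genes, while 2.87% of all genes were called. Abca1 was 2.54-fold lower, Abcg1 2.10-fold lower and Apoc2 1.70-fold lower. The median of the 10 was -0.627 against -0.000478 over all genes, and 8 of 10 had a negative value. The unadjusted p was under 0.05 for 8 of the 10, beside 4156 of 18001 genes. Of these 8, Nr1h3 alone was higher in flox cells (0.33, adjusted p = 0.197). No tamoxifen was given here, yet Thoc5 itself was lower on both flox arrays than on every control array, at -0.42 (adjusted p = 0.073, unadjusted p = 0.00429, limma), and recombination without tamoxifen was not tested. Of the markers, Ctsg and Elane of 9 neutrophil genes and Gp9 of 6 megakaryocyte genes had lower day 3 over day 0 ratios in flox cells. The mean day 3 level of the 9 neutrophil markers was higher there, at 11.56 and 11.44 (log2, experiments 1 and 2), against 10.86 and 10.96 in control cells. For the megakaryocyte markers it was 10.01 and 9.99 in flox cells and 9.96 and 10.05 in control cells. The part of these markers in the values of the 10 genes was not tested.

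**Figure D4:**
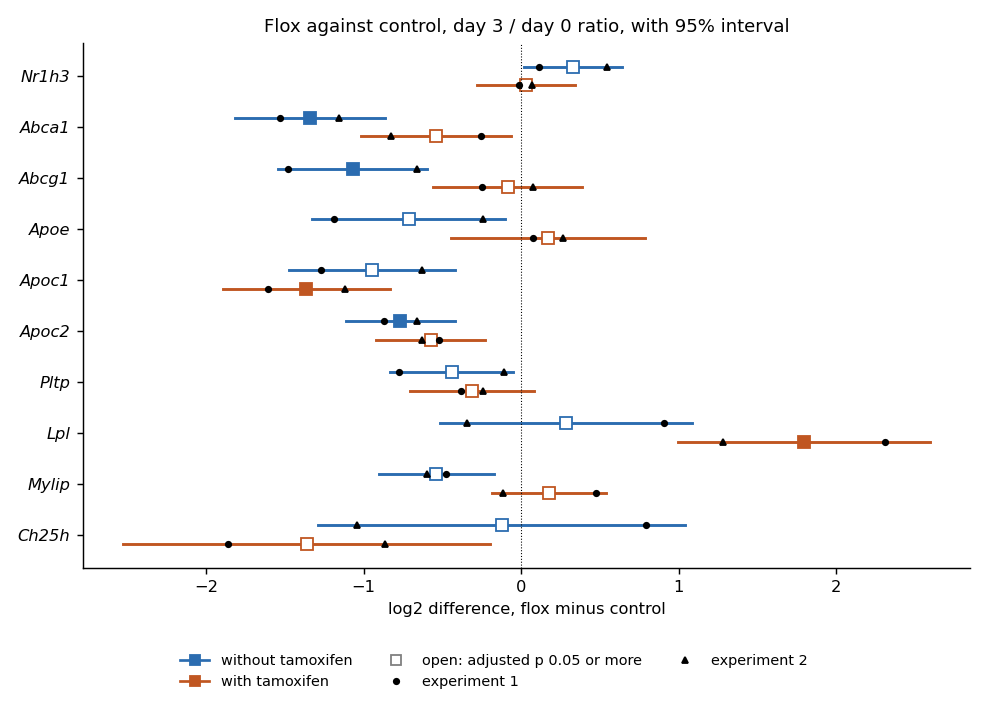
The plot shows, per gene, the log2 difference flox minus control of the day 3 over day 0 ratio, as a square with its 95% interval, without tamoxifen (blue) and with it (orange); filled squares passed at an adjusted p under 0.05, and small circles and triangles are experiments 1 and 2. Without tamoxifen the filled squares are Abca1 at -1.34, Abcg1 at -1.07 and Apoc2 at -0.77, and with it Apoc1 at -1.36 and Lpl at 1.80.

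Abca1 gave -1.34 ± 0.20 (log2, SE, adjusted p = 0.0376), with -1.53 and -1.16 in the 2 experiments. Abcg1 gave -1.07 ± 0.20 (adjusted p = 0.0489), with -1.48 and -0.66. Apoc2 gave -0.77 ± 0.14 (adjusted p = 0.0492), with -0.87 and -0.66. Each was lower in both experiments, which is no separate support, since the calls came from a fit to these same arrays. Each was called in the day 3 channel alone as well, where 1805 of 18001 genes were called against 517 for the ratio. In that channel 6 of the 10 passed: Abca1, Abcg1, Apoc1, Apoc2 and Mylip lower and Nr1h3 higher. Abcg1 was at -0.50 there, a smaller value than for the ratio. The calls did not hold with 1 array less: without any 1 of the 8 arrays Abca1 (-1.60 to -1.08), Abcg1 (-1.37 to -0.77) and Apoc2 (-0.96 to -0.58) kept their sign and lost their call. With no replicate block none of the 3 was called (adjusted p = 0.513 for Abca1, 0.195 for Abcg1 and 0.182 for Apoc2), nor was any with Agilent's processed log ratio or the compared arrays alone. Apoc2 also lost its call with a random block for each day 0 RNA (adjusted p = 0.0617) and with no background correction (0.051).

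With tamoxifen, flox cells differed from control cells in 2 of the 10 genes, while 11.3% of all genes were called. Apoc1 was 2.57-fold lower and Lpl 3.47-fold higher. Apoc1 gave -1.36 ± 0.22 (log2, SE, adjusted p = 0.0168), with -1.61 and -1.12 in the 2 experiments. Lpl gave 1.80 ± 0.33 (adjusted p = 0.0243), with 2.31 and 1.28. The 2 genes stand on opposite sides of 0 in each experiment, and the median of the 10 was -0.2. The second Lpl probe gave 1.11 (adjusted p = 0.0642). In the same comparison the ratio of Dcn was higher in flox cells by 1.11 (limma, adjusted p = 0.0425), with all 7 stromal and fat markers above 0. Ratios were lower for 3 of 9 neutrophil, 4 of 6 megakaryocyte, 4 of 6 B lineage and 3 of 10 macrophage markers. The mean day 3 level of the neutrophil markers was higher in flox cells, at 11.77 and 11.45 against 10.99 and 11.05 (log2, experiments 1 and 2). That of the megakaryocyte markers was 9.82 and 9.44 against 9.80 and 9.80. Those of the B lineage and macrophage markers were lower in flox cells in both experiments. The part of these markers in the Apoc1 and Lpl values was not tested.

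Apoc2 just missed the threshold at -0.58 (adjusted p = 0.0516), and Abca1, at -0.54, and Ch25h, at -1.36, did not pass (adjusted p = 0.13 and 0.121). In the day 3 channel alone, where 3145 of 18001 genes were called against 2031 for the ratio, 6 of the 10 passed. Abcg1 and Lpl were higher and Apoc1, Apoc2, Pltp and Ch25h lower in this channel. There Abcg1 was at 0.44 (adjusted p = 0.0312), against -0.09 for the ratio, and its day 0 value was 0.55. Lpl was at 1.12 there, against 1.80 for the ratio. Apoc1 and Lpl lost their calls without any 1 of the 4 arrays compared, with values of -1.67 to -1.05 and 1.41 to 2.18, and with no replicate block (adjusted p = 0.218 and 0.0523).

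Among themselves, the 10 genes varied in a few recurring ways over the 8 arrays, which share their day 0 RNA in pairs, so the correlations are given as descriptions. Apoc1 and Apoc2 had r = 0.931, and 0.955 after the experiment means were taken out. Abca1 and Abcg1 had r = 0.814, or 0.854 within experiments, and both had r above 0.8 with Pltp (0.882 and 0.864). Apoe and its neighbour Apoc1 had only r = 0.401, and 0.0289 within experiments. The lowest pair was Apoc1 and Lpl, at -0.859, and Nr1h3 was negative with Apoc1 (-0.785), Apoc2 (-0.766) and Abca1 (-0.737).

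The genes outside the 10 whose ratios were most like theirs were found over the same 8 arrays among 17909 genes. Lpl was closest to Ireb2 (r = 0.993) and Fbxo34 (0.992), Apoc1 to Cabp4 (0.992) and Gm3950 (0.987), and Pltp to the probe named ENSMUST00000106359 (0.99) and H2-T10 (0.989). Ch25h was closest to Dnmt3l (0.985) and ENSMUST00000110243 (0.977), Abca1 to Foxn3 (0.983) and Tmem9 (0.978), and Apoe to Wdtc1 (0.983) and Mdga2 (0.973). Abcg1 was closest to Erlec1 (0.981) and 4933430I17Rik (0.963), Nr1h3 to Fance (0.962) and Nt5m (0.954), Apoc2 to Nlrp1a (0.96) and Sh3bp4 (0.957), and Mylip to Ndufa1 (0.96) and Cdc42ep4 (0.948). These are the highest of many values over 8 arrays, and nothing follows from them about shared control.

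Other parts of the pathway were read from 3 lists. The first holds LXR partners and other LXR targets, of which 19 of 22 genes were tested; Abcg5, Abcg8 and Apoc4 did not pass the filter on dim probes. In control cells without tamoxifen 10 of the 19 rose to day 3 and 0 fell, while over all genes 4201 rose and 6120 fell. In flox cells with tamoxifen 6 rose and 6 fell, while over all genes 4586 rose and 6011 fell. With both directions together, the shares were near the 57.3% and 58.9% of all genes called there. Tamoxifen in flox cells raised 1 and lowered 2 of them, and 16 did not pass (median -0.0451), beside 9.02% of all genes called. Tgm2, a transglutaminase of macrophages that take up dying cells, fell by 2.13 ± 0.15, Cd5l, a secreted macrophage protein, fell by 1.31 ± 0.17, and Arg2, a mitochondrial arginase, rose by 1.5 ± 0.25 (log2, SE, adjusted p = 0.0022, 0.00965 and 0.0192).

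The arrays show these 3 genes differently. Tgm2 had log2 ratios of 0.045 and 0.47 in untreated control cells and -1.13 and -1.28 with tamoxifen, and 0.27 and 0.24 in flox cells without tamoxifen and -1.95 and -1.81 with it. In control cells the tamoxifen effect on Tgm2 was -1.46 and did not pass (adjusted p = 0.16), and the difference of the effects, -0.67, did not pass either (adjusted p = 0.204). Cd5l had 3.24 and 2.82 in untreated control cells and 2.86 and 2.24 with tamoxifen, and 1.79 and 1.85 in flox cells without tamoxifen and 0.58 and 0.43 with it. Its groups of flox cells did not overlap with those of control cells. Arg2 had -0.343 and -0.0488 in untreated control cells and -0.435 and -1.07 with tamoxifen. In flox cells Arg2 had -1.14 and -1.32 without tamoxifen and 0.652 and -0.122 with it, and the last pair overlapped with untreated control cells. The receptor partners Nr1h2 (LXR beta), Rxra and Rxrb were at 0.06, -0.24 and 0.21 with tamoxifen in flox cells and did not pass (adjusted p = 0.779, 0.234 and 0.421).

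**Figure D5:**
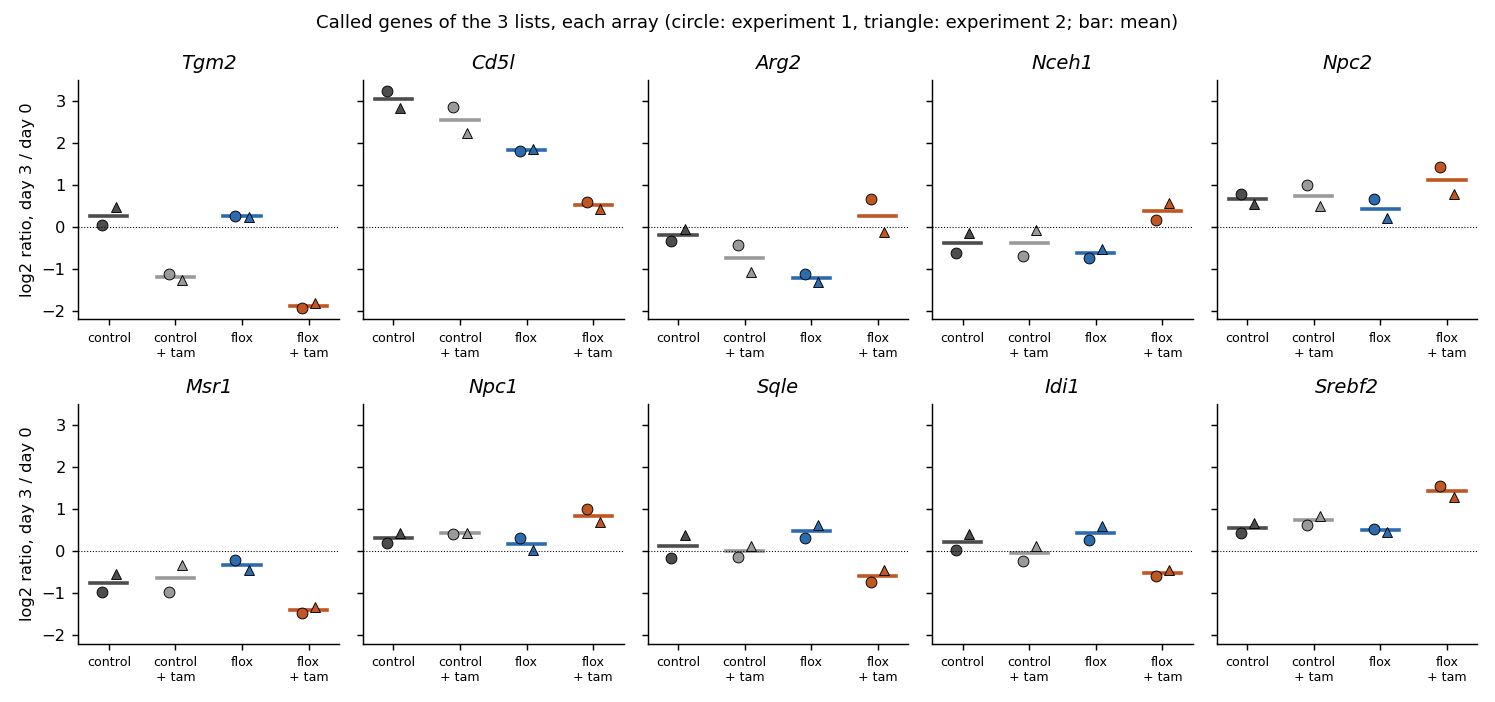
Each panel plots the log2 ratio of day 3 over day 0 of 1 gene on the 8 arrays, by group, for 10 genes of the 3 lists called in the tamoxifen effect in flox cells, with circles for experiment 1, triangles for experiment 2 and a bar for the mean. Sqle and Idi1 are below 0 on both flox arrays with tamoxifen and above 0 on both without it, and Srebf2 is highest with tamoxifen in flox cells at 1.55 and 1.29.

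The second list, cholesterol uptake, storage and lysosomal release, had 15 of 15 genes tested. In control cells without tamoxifen 3 rose and 8 fell to day 3, where 57.3% of all genes were called, 4201 higher and 6120 lower. Tamoxifen in flox cells raised 3 and lowered 1, and 11 did not pass, beside 9.02% of all genes called (median 0.411 against -0.00737 over all genes). Nceh1, which splits stored cholesterol esters, rose by 1.00 ± 0.12, and Npc2 and Npc1, which bring cholesterol out of the lysosome, rose by 0.68 ± 0.12 and 0.68 ± 0.16. Msr1, the scavenger receptor A, fell by 1.07 ± 0.20 (adjusted p = 0.00798, 0.0235, 0.049 and 0.0276). Nceh1 was at 0.17 and 0.56 on the flox arrays with tamoxifen and between -0.75 and -0.076 on all others, so those 2 arrays stood above the rest.

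The last list, sterol sensing and SREBP2 targets, had 12 of 12 genes tested. In control cells without tamoxifen 7 rose to day 3 and 0 fell, while 57.3% of all genes were called, 4201 higher and 6120 lower. In flox cells with tamoxifen 3 rose and 5 fell, while 58.9% of all genes were called, 4586 higher and 6011 lower. Tamoxifen in flox cells raised 1 and lowered 3, and 8 did not pass, beside 9.02% of all genes called (median -0.463 against -0.00737 over all genes). Among those that fell were 2 enzymes of sterol synthesis, Sqle, squalene epoxidase, by 1.07 ± 0.11, and Idi1, isopentenyl diphosphate isomerase, by 0.95 ± 0.11 (log2, SE, adjusted p = 0.00576 and 0.00636). The 1 that rose was Srebf2, the gene of SREBP2 itself, by 0.92 ± 0.15 (adjusted p = 0.0168).

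In the difference of the tamoxifen effects, 0 genes of each of the 3 lists passed (limma). The unadjusted p was under 0.05 for 2764 of 18000 genes, and for 5 of 19, 8 of 15 and 4 of 12 in the lists. The nearest to the threshold were Sqle at -0.95, Arg2 at 2.06 and Nceh1 at 1.00 (adjusted p = 0.0559, 0.0585 and 0.0585). Between the genotypes without tamoxifen, Cd5l (-1.21) and Arl4c (-0.58) of the first list and Vldlr (-0.96) of the second were lower in flox cells, beside 2.87% of all genes called. With tamoxifen 4 of 19, 4 of 15 and 6 of 12 were called, in the order of the lists, beside 11.3% of all genes. Leaving out 1 array moved the counts of the tamoxifen effect in flox cells to 1 to 5, 0 to 6 and 0 to 5 called genes, from 3, 4 and 4. With no replicate block 0 genes of the second list and 1 of the last were called.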

How the data were processed

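Per the submitters' processing notes, the authors processed the scans of 8 dual-colour arrays with Agilent Feature Extraction 10.7.3.1. For each spot the deposited files give the mean intensity and the local background of both channels, not yet subtracted. Their deposited log10 ratio, and the table of values by the authors, which equals it after turning swapped dyes, to within 5e-10, served as an alternative. Other deposited columns, used as flags of 0 or 1, mark spots above background, saturated spots and outliers.

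Mean intensities were corrected with normexp (offset 50) and log2 ratios normalized by loess within arrays in limma 3.58.1 (R 4.3.3, data.table, version 1.17.8), turned to day 3 over day 0, and averaged over spots of a probe. Outlier spots were left out. A probe was kept if some group had it above background on both its arrays in 1 channel (22407 probes), and the brightest probe stood for a gene (18004 genes, 85 with a missing array). Positions are on mm9, as deposited. The 10 genes, the 3 lists and the marker lists were chosen with earlier results of these data known; list genes named are up to 4 called ones with the smallest p, and a few others were chosen after their values were seen. A called list gene is not reported here but stays in each count.

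The limma model held 4 group means and the experiment as replicate block, with 3 residual and 3.47 prior degrees of freedom, two-sided tests and Benjamini-Hochberg adjustment over all genes (called: adjusted p under 0.05). The labels say that a replicate number marks a biological experiment. Deviations of same-numbered arrays correlated at 0.31 to 0.729, highest between groups that share a day 0 RNA (0.729 and 0.626). Same-numbered arrays also share the dye direction, so these correlations cannot show a pairing by experiment. The day 0 comparison, and the day 3 channel alone, used channel intensities after Aquantile normalization. The labels do not say that cultures came from separate mice, so p-values measure the spread between these samples. The number of arrays limits the precision. The method was tested on simulated data with independent errors for each array, so that test does not cover the shared day 0 RNA. Alternatives are those of the closing section, with statmod 1.5.0 for the random block.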

Additional observations from a re-analysis of the deposited data

Results flagged for a closer look

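The following results differed between the genotypes by a test of the difference itself. Thoc5 had a difference of the tamoxifen effects, flox minus control, of -2.43 (log2, adjusted p = 0.00897) and was at -2.85 in flox against control cells with tamoxifen (adjusted p = 0.00074). With 1 array left out, the difference for Thoc5 stayed at -2.48 to -2.38 and was called in 3 of 8 fits (adjusted p up to 0.125), and the value of flox against control cells with tamoxifen in 7 of 8, the exception being without the control array of experiment 1 with tamoxifen (-2.86, adjusted p = 0.0524). Without tamoxifen, Abca1 (-1.34), Abcg1 (-1.07) and Apoc2 (-0.77) were lower in flox cells. With tamoxifen, Apoc1 (-1.36) was lower and Lpl (1.80) higher in flox cells. No group had enough arrays for a check of single arrays that stand apart.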

How the results depend on the processing

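Called counts of the 10 members moved as follows. With no replicate block, 0 were called in the tamoxifen effect in flox cells (3 with it), in flox against control without tamoxifen (3 with it) and with tamoxifen (2 with it). Agilent's processed log ratio gave 0, 0 and 1 in these 3 comparisons, the fit of the compared arrays alone 6, 0 and 4, and the day 3 channel alone 6 without and 6 with tamoxifen between genotypes and 1 in the difference of the tamoxifen effects. Median centring in place of loess gave 1 in the tamoxifen effect in control cells, 2 in the difference and 5 in flox against control without tamoxifen. Abcg1 in flox against control with tamoxifen reversed in the day 3 channel alone, to 0.44. In the tamoxifen effect in flox cells, LXR partners and other LXR targets had 5 called with median centring, 5 with a random block for each day 0 RNA, 8 with the compared arrays alone and 6 in the day 3 channel. For cholesterol uptake, storage and lysosomal release these were 0 with no replicate block, 1 with Agilent's ratio and 10 with the compared arrays alone. For sterol sensing and SREBP2 targets they were 1 with no replicate block, 7 with the random block, 8 with the compared arrays alone and 7 in the day 3 channel, and 4 at day 3 in control cells without tamoxifen with median centring. The causes of these shifts were not tested.

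Leaving out 1 array at a time gave ranges for the 10 members of 8 to 8, 8 to 9, 6 to 9 and 6 to 7 called at day 3 (control cells without and with tamoxifen, flox cells without and with it), 0 to 3 for tamoxifen in flox cells, 0 to 0 for tamoxifen in control cells, the difference and day 0, 0 to 0 between genotypes without tamoxifen and 0 to 4 with it. For LXR partners and other LXR targets, cholesterol uptake, storage and lysosomal release, and sterol sensing and SREBP2 targets they were 8 to 10, 5 to 10 and 3 to 7 at day 3 in control cells without tamoxifen, 7 to 12, 4 to 12 and 6 to 8 in flox cells with tamoxifen, and 1 to 5, 0 to 6 and 0 to 5 for tamoxifen in flox cells. In such fits the lone array of a group is assumed to vary like the others.

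Over all genes, calls of the tamoxifen effect in flox cells moved from 1624 to 469 with no replicate block, 2910 with the random block and 4672 with the compared arrays alone; calls between genotypes without tamoxifen moved from 517 to 2 with no replicate block, 5 with Agilent's ratio, 0 with the compared arrays alone and 1805 in the day 3 channel. With tamoxifen they moved from 2031 to 532 with no replicate block, 1239 with Agilent's ratio and 3145 in the day 3 channel. The difference of the tamoxifen effects moved from 205 to 22 with no replicate block, 59 with Agilent's ratio, 379 with median centring, 827 with the random block and 616 in the day 3 channel. Tamoxifen in control cells moved from 0 to 27 with median centring, and day 0 from 208 to 105 with no replicate block, 126 with no filter, 100 with the strict one and 52 with the compared arrays alone. With 1 array left out these counts ran from 223 to 2384 for tamoxifen in flox cells, 0 to 284 for the difference (0 in 5 of 8 fits), 0 to 156 between genotypes without tamoxifen (0 in 5 of 8), 0 to 3020 with it (0 and 26 without a control array with tamoxifen) and 113 to 218 at day 0, and were 0 for tamoxifen in control cells. Of the gene values, 41 that were not called changed sign and stayed uncalled. The fit of the compared arrays alone gives no value for day 3 against day 0, since 1 group leaves no residual degree of freedom. Other settings tried were no background correction, scale normalization, leaving the filter on dim probes out or making it strict, the mean of all probes and, at day 0, quantile normalization.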
